A study of Homo sapiens with 2 samples.

Results

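The intervals of the HA-RFX6 ChIP-seq peak list that lay only at the ends of non-coding genes were examined. MHCC-97H, an established line from human hepatocellular carcinoma (HCC), was made to overexpress HA-tagged RFX6 (RFX6-OE) and gave 1 ChIP library, and 1 input library makes up the 2 samples of the series. There were no replicates, the read depth was unknown, and confidence intervals below are 95% intervals that cover the counting of intervals or genes only. An interval was kept when its midpoint was within 1 kb of an end of an annotated gene that is not listed as protein-coding. The midpoint also had to be farther than 1 kb from both ends of every protein-coding gene. Of 5019 distinct intervals on chromosomes 1 to 22 and X, 226 met this rule (4.50%), while 3054 were at protein-coding gene ends (60.8%) and 1739 were away from all gene ends (34.6%). The 226 intervals covered 76.6 kb and had 235 genes at hand, with 1 gene at 203 intervals, 2 genes at 19 and 3 genes at 4.

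RFX proteins recognise DNA through a winged-helix domain, and RFX6 has been studied mainly as a regulator of insulin-producing beta cells. The family binds the X-box, an imperfect inverted repeat that is common at promoters of ciliary genes. Non-coding genes are of several kinds. Long non-coding RNA (lncRNA) genes are transcribed by RNA polymerase II, and many of them start beside or inside a protein-coding gene on the opposite strand. Transfer RNA (tRNA) genes are short and are transcribed by RNA polymerase III from promoter elements inside the gene, and pseudogenes are copies of genes that have lost their function.

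Promoter sequences of 7 lncRNA genes are given here because they carry the highest score of the list (LOC105369631), lncRNAs known in HCC (MALAT1, HEIH and SNHG5), a start beside an internal coding start site (ZNF232-AS1) or letters of the X-box in or at the edge of the interval (HEIH, LOC105371573 and LOC124904914). Each window holds 250 bases before and 50 bases after the start site, as RefSeq gives it on GRCh38.p14, and is written 5′ to 3′ along the gene with the bases inside the peak interval in capitals. The windows lie at chr12:6613836-6614135 (plus strand) for LOC105369631, chr11:65497488-65497787 (plus) for MALAT1, chr5:180831569-180831868 (minus) for HEIH, chr6:85678684-85678983 (minus) for SNHG5, chr17:5111685-5111984 (plus) for ZNF232-AS1, chr17:19362527-19362826 (plus) for LOC105371573 and chr20:45363319-45363618 (minus) for LOC124904914.
LOC105369631: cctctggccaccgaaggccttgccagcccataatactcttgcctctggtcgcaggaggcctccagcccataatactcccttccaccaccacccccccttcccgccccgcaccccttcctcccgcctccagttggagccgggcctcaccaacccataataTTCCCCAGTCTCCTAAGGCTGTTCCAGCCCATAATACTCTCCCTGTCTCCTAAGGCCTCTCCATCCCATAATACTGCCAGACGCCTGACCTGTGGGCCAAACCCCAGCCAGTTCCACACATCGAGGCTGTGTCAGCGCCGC
MALAT1: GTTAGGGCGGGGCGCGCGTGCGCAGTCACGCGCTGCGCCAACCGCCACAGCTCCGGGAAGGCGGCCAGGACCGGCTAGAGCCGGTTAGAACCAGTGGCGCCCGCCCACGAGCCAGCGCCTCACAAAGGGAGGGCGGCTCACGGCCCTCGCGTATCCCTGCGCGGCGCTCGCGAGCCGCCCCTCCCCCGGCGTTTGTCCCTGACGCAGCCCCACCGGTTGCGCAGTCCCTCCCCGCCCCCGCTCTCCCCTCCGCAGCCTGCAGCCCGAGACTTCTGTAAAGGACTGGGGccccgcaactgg
HEIH: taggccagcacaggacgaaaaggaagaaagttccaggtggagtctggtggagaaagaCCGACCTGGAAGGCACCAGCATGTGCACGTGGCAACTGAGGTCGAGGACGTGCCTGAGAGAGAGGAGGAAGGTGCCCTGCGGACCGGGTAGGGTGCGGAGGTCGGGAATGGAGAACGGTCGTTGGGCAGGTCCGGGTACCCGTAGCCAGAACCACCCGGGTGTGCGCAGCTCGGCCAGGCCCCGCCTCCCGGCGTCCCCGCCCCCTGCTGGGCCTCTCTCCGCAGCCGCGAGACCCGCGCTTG
SNHG5: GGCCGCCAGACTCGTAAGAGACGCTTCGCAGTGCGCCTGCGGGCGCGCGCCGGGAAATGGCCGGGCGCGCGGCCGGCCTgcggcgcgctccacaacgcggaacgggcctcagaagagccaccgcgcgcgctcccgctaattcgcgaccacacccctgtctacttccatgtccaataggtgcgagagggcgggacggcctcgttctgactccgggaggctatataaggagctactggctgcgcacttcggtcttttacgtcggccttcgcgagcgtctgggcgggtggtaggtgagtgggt
ZNF232-AS1: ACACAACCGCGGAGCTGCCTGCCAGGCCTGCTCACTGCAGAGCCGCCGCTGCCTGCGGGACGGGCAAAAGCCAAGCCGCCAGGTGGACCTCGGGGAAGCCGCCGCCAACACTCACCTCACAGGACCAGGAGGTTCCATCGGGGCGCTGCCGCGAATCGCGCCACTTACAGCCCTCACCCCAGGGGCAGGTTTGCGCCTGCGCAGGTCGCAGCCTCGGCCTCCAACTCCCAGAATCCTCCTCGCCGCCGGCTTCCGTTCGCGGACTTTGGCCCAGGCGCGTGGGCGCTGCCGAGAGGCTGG
LOC105371573: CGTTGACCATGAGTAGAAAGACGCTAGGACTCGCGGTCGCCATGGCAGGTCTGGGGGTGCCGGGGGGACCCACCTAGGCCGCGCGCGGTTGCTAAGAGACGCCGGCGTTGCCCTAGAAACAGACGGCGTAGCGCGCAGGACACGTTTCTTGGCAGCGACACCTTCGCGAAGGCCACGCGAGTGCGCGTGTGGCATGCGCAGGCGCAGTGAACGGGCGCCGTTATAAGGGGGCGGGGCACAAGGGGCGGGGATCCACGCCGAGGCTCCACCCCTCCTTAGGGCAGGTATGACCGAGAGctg
LOC124904914: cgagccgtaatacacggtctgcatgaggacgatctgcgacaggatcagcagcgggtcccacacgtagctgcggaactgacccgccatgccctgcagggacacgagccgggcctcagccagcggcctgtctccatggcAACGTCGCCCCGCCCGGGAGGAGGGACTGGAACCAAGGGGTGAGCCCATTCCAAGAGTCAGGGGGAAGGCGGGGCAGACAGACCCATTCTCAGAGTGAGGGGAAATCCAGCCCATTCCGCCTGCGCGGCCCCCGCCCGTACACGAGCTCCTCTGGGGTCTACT

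The highest score of the whole list belonged to one of these intervals. It was at chr12:6613995-6614313, had a score of 170 and held the start of LOC105369631, an uncharacterised lncRNA gene. The midpoint was 68 bp inside the gene and 4681 bp from the nearest coding gene end, that of LPAR5. The highest score at protein-coding gene ends was 126, and the second highest among the 226 intervals was 74. The start window of LOC105369631 held the 10-letter word CCCATAATAC 4 times, beginning at bases 27, 66, 187 and 224 of the window. Such a word, counted on the strand of the gene and made of at least 3 different letters, recurred 4 or more times in 190 of 11383 lncRNA start windows (1.67%). The window of LOC105372255 (score 17) held GGCGCGCAGG 6 times, and 6 or more repeats were found in 0.879% of lncRNA windows. This property was looked for after the sequences had been seen.

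lncRNA genes were the largest group, with an end at 175 of the 226 intervals (77.4%, Wilson interval 71.6 to 82.4). Pseudogenes were at 42 intervals, and at 35 of these no other kind of gene was present. Both counts include 2 intervals at ORAI1, a gene that encodes a protein but is listed as a pseudogene. tRNA genes were at 10 intervals and microRNA (miRNA) genes at 7. Small nucleolar and small nuclear RNA genes were at 0 of 226 intervals each, with an upper Wilson bound of 1.67%. By gene, this was 0 of 1125 small nucleolar RNA genes (upper bound 0.340%) and 0 of 143 small nuclear RNA genes (upper bound 2.62%). The share over all non-coding genes was 0.602%. The bound for small nuclear RNA genes lies above it, so their 0 carries no information. The RNA gene LOC107985303, of no listed class, had 2 intervals with scores of 56 and 43. Of the remaining genes, IGHA2 encodes an immunoglobulin constant region, and TRBV7-8 is a T-cell receptor segment that the gene table places at position 515605 of chromosome 7, whereas 61 of 66 other segments of this family lie between 142299011 and 142812586. The position of TRBV7-8 in the table is therefore doubtful. The intervals of IGHA2 and TRBV7-8 (scores of 39 and 28) were still kept in all counts, because neither gene is listed as protein-coding. The TRBV7-8 interval belongs to this class by that doubtful position alone.

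Relative to the number of genes, an interval was most frequent at tRNA genes. Of the non-coding genes with an end outside the coding windows, 230 of 38207 had such an interval, a background of 0.602% (interval 0.529 to 0.685). The share was 3.08% for tRNA genes (12 of 389, 1.77 to 5.31), 0.942% for lncRNA genes (168 of 17826, 0.811 to 1.10), 0.353% for miRNA genes (6 of 1700, 0.162 to 0.768) and 0.249% for pseudogenes (41 of 16484, 0.183 to 0.337). The confidence intervals of tRNA genes and of lncRNA genes were above that of pseudogenes. The 12 tRNA genes shared 10 intervals, and at 5 of these another tRNA gene lay within 5 kb. These genes are thus not independent, and the confidence interval for tRNA genes may be too narrow. Among RNA genes of other classes the share was 0.735% (1 of 136), and among genes of the remaining listed types 0.495% (2 of 404). Of protein-coding genes, 15.5% had an interval of the list within 1 kb of an end. Among lncRNA genes, the share was 1.62% for antisense transcripts (32 of 1974), 1.66% for divergent transcripts (9 of 542), 1.99% for genes with other given symbols (17 of 856), 0.695% for genes with a LINC symbol (16 of 2302) and 0.774% for gene models with a LOC symbol (94 of 12152). At 102 of the 226 intervals (45.1%) the only genes were non-coding gene models of any kind with a LOC symbol.

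**Figure D1:**
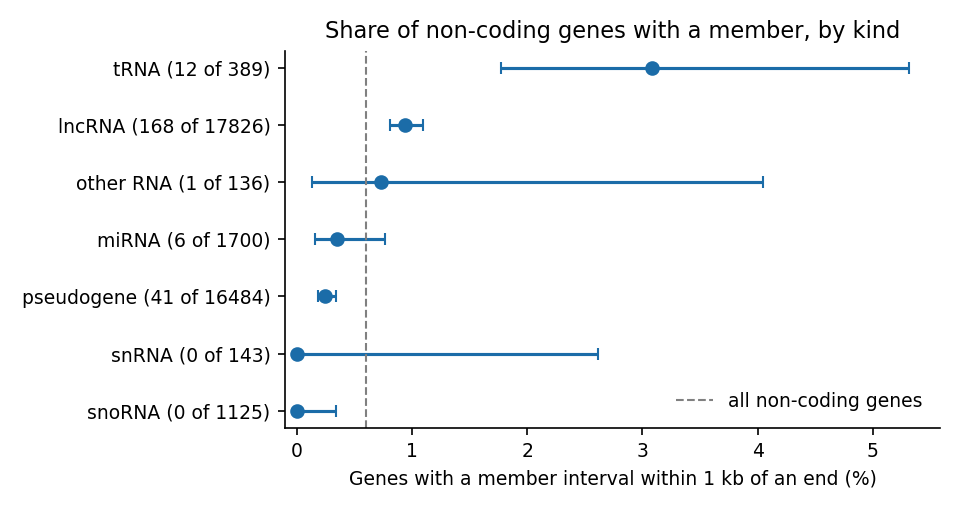
Share of genes with an interval at a non-coding end within 1 kb, in percent, by kind of gene, with 95% Wilson intervals as bars and the number of genes in brackets. The dashed line is the share over all non-coding genes (0.602%); tRNA and lncRNA genes are to its right and pseudogenes to its left.

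To see what the position alone gives, all intervals were moved by 20 kb. Of 1965 intervals that were not at coding gene ends, 226 (11.5%, 10.2 to 13) were at non-coding ends. After the move, the same share was 220 of 4635 (4.75%, 4.17 to 5.40) toward lower coordinates and 271 of 4612 (5.88%, 5.23 to 6.59) toward higher ones. The number not at coding ends rose with the move because intervals left the coding windows, and counts are therefore given beside the shares. As a count, 226 lay between the 220 and 271 of the moved lists. Intervals at lncRNA genes numbered 175, compared with 133 and 158 after the moves. They made up 8.91% of those not at coding ends as deposited (7.73 to 10.2), compared with 2.87% (2.43 to 3.39) and 3.43% (2.94 to 3.99) after the moves. Intervals at tRNA genes numbered 10, compared with 1 and 0. Intervals with only a pseudogene numbered 35, compared with 69 and 88, and made up 1.78% (1.28 to 2.47), which lay between the 1.49% (1.18 to 1.88) and 1.91% (1.55 to 2.34) of the moved lists. The windows of the rule cover 114 Mb, or 3.77% of the ground between the first and last genes.

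The intervals at lncRNA genes were mostly at the start of the gene. The strand, and thus the start, was known for the nearest gene of 134 intervals, and 109 of them (81.3%, 73.9 to 87.0) were nearest to the start rather than the far end. In the moved lists this share was 43 of 95 (45.3%, 35.6 to 55.3) and 44 of 96 (45.8%, 36.2 to 55.8). At protein-coding gene ends it was 95.3%, so that the non-coding share was different by -14 percentage points (Newcombe interval -21.5 to -8.22). The median distance to the end was 303 bp at the 109 starts and 549.5 bp at the 25 far ends. Inside protein-coding genes 64 of 79 intervals (81.0%, 71.0 to 88.1) were at starts, and outside them 45 of 55 (81.8%, 69.7 to 89.8). When intervals within 1 kb of a coding start site were left out, 66 of 91 (72.5%, 62.6 to 80.6) were at starts.

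**Figure D2:**
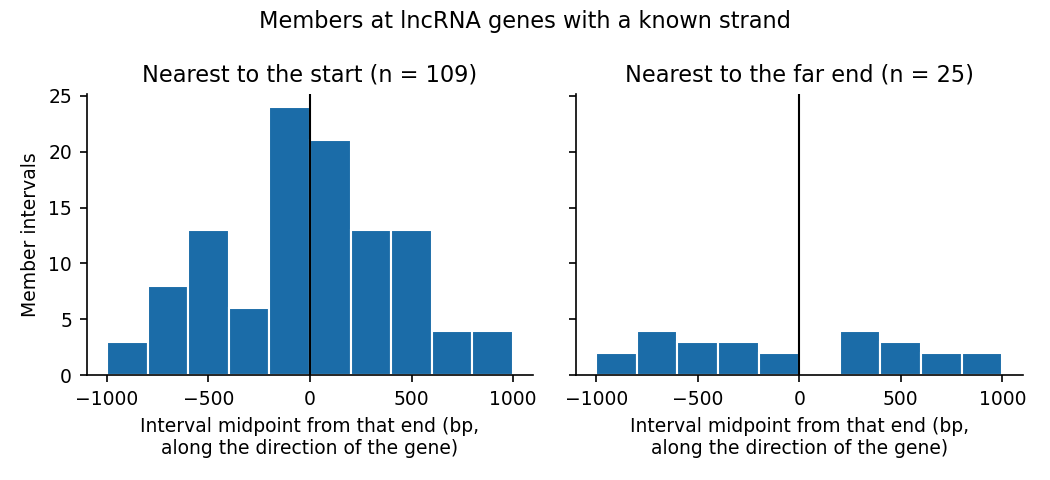
Distance of the interval midpoint from the nearest end of a lncRNA gene of known strand, in bp along the direction of the gene, for intervals nearest to the start (left) and to the far end (right). The 109 intervals at starts gather around the start, with a median distance of 303 bp, and the 25 at far ends are spread over the window.

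Not all of these intervals were away from coding promoters, since the rule used the outer ends of each protein-coding gene and many genes have further start sites inside. Of the 222 intervals on chromosomes for which start sites were listed, 53 (23.9%, 18.7 to 29.9) were within 1 kb of a coding start site. All 53 lay inside a coding gene, which follows from the rule, since both outer ends were farther than 1 kb away. For intervals away from all gene ends the share near a coding start site was 15.3%, and the difference was 8.55 points (3.12 to 14.8). At these 53 intervals the label as non-coding only goes against the listed start sites. Examples were the ZNF232-AS1 interval (score 67), 50 bp from a start site of ZNF232, and the interval of FAM13B-AS1 and LOC124901077 (score 65), 30 bp from a start site of FAM13B. PFKFB3 encodes an enzyme that makes fructose 2,6-bisphosphate, an activator of glycolysis, and the PFKFB3-AS1 interval (score 39) was 84 bp from one of its internal start sites and 57927 bp from its outer end. ABL1, a tyrosine kinase gene, had an internal start site 5 bp from the interval of LOC124902287 (score 25). TFEB, which drives lysosomal genes, had a start site 9 bp from the interval of MIR10398 (score 22), and CDKN1A, the gene of the cell-cycle inhibitor p21, had a start site 146 bp from the interval of its divergent lncRNA DINOL (score 13).

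A score of at least 30 was reached by 30 of 53 (56.6%) and by 81 of 169 others (47.9%), a difference of 8.67 points (-6.62 to 23.2) whose interval includes 0. Of all 226 intervals, 114 (50.4%, 44.0 to 56.9) were inside a protein-coding gene, against 72.5% of those away from all gene ends, a difference of -22.1 points (-28.9 to -15.3). When the 53 were left out, 61 of 173 (35.3%) were inside a protein-coding gene. All of the 53 were inside one by the rule, so the share had to fall. Intervals at start sites were not left out of the 72.5%. The nearest coding gene end was over 1 kb to 2 kb away for 44 intervals, up to 5 kb for 40 and up to 20 kb for 83, and the median distance was 8155.5 bp. An interval at a coding gene end within 5 kb was found for 22 intervals (9.73%), compared with 26.9% of the intervals at coding ends themselves and 12.2% of those away from all gene ends. The difference from those away from all gene ends was -2.46 points (-6.06 to 2.33), an interval that includes 0. The 26.9% is not a like comparison, since the rule places that class within 1 kb of a coding end and the 226 intervals farther away.

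**Figure D3:**
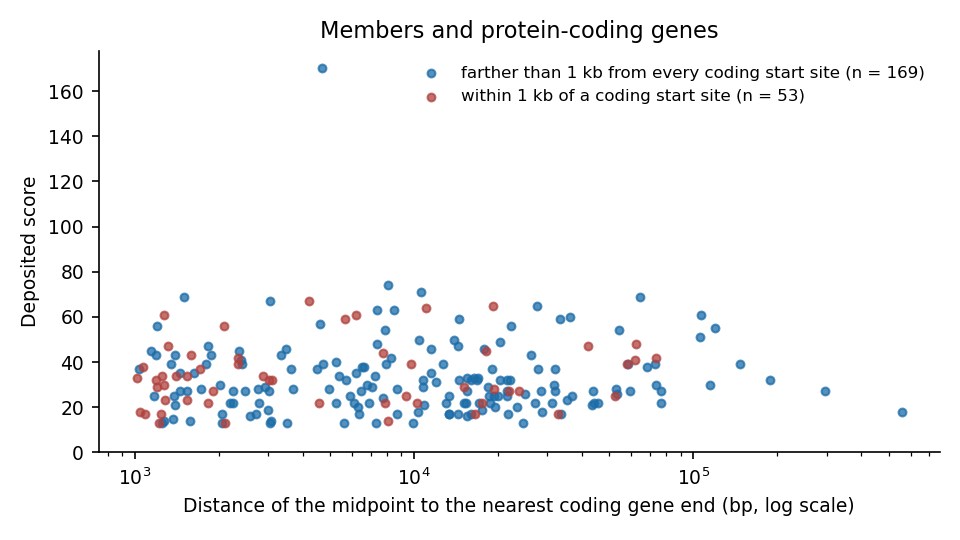
Score of each interval against the distance of its midpoint to the nearest protein-coding gene end (bp, log scale), for the 222 intervals on chromosomes with listed start sites. The 53 intervals within 1 kb of an internal coding start site (red) have a median score of 32 and the other 169 (blue) a median of 29, and both occur over most of the range of distances.

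The scores as a whole lay between those of the other classes. The median score was 29 (quartiles 22 and 39), compared with 32 (25 and 43) at protein-coding gene ends and 27 (21 and 37) away from all gene ends. A score of at least 30 was reached by 111 of 226 intervals (49.1%), against 57.1% at coding ends, a difference of -7.99 points (-14.7 to -1.28). The difference from the 44.1% away from gene ends was 5.01 points (-1.85 to 11.9), an interval that includes 0. The median width was 279 bp, against 282 bp at coding ends and 255 bp elsewhere. Intervals were listed on more than 1 line in 23.5%, similar to the 22.3% at coding ends (difference 1.15 points, -4.12 to 7.26) and above the 11% elsewhere (12.5 points, 7.18 to 18.6). By kind, the median score was 30 at lncRNA genes, 29.5 at tRNA genes, 27 at pseudogenes and 22 at miRNA genes.

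**Figure D4:**
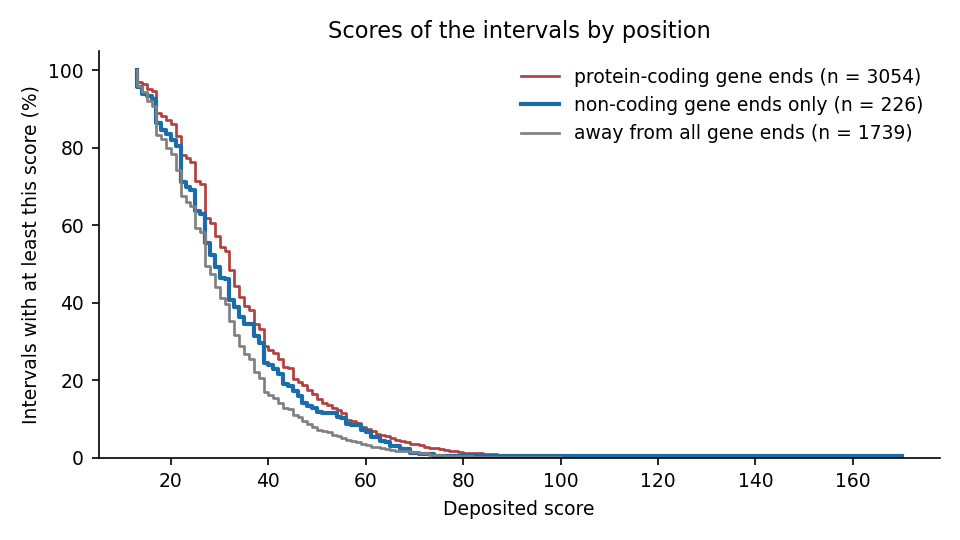
Share of intervals, in percent, that have at least the score on the horizontal axis, for intervals at non-coding gene ends only (blue, 226), at protein-coding gene ends (red, 3054) and away from all gene ends (grey, 1739). The blue curve runs between the others over most of the range, and its tail reaches 170.

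The highest scores after LOC105369631 belonged to a mixed group. LOC646938, a transcribed pseudogene, had 74, and the interval of TREHP1, a pseudogene named after the trehalase gene TREH, and of LOC105369519 had 71. The LOC model LOC107987142, inside TMEM250, had 69. LOC105376270 and ZNF232-AS1 had 67 each. LUNAR1, a lncRNA known from Notch-driven leukaemia, had an interval with a score of 63 at 429 bp inside its start, and LOC124905136 had 63 with its start held by the interval. Further values among the 15 highest were 65 at FAM13B-AS1 and at MALAT1, 64 at LOC124901095 inside RNF14, and 61 at LOC124903040, at the pseudogene LOC646214 and at TPM1-AS. Of these 15 intervals, 5 lay within 1 kb of an internal coding start site, namely those of ZNF232-AS1, FAM13B-AS1, LOC124901095, LOC124903040 and TPM1-AS.

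Of 40 lncRNA genes known from liver cancer that were in the gene table, 2 had an interval (5% of the list, beside 0.942% of all lncRNA genes), and none of the others had one elsewhere within 1 kb of its ends. MALAT1, an abundant nuclear lncRNA, had an interval at chr11:65497426-65497775 with a score of 65, which held its start and lay 27482 bp from the nearest coding gene end. SNHG5, which hosts small nucleolar RNAs in its introns, had an interval with a score of 23 at 343 bp before its start. Of 26 such host genes of the SNHG series, 2 had an interval (7.69%, beside the same 0.942%), SNHG5 and SNHG29, the latter with a score of 25 at its far end, while SNHG19 had one at a coding gene end. HEIH, a lncRNA described in HCC that was not on the list and was chosen after its value was seen, had an interval with a score of 39 that held its start, lay inside ZFP62 and was shared with LINC00847.

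At the 6 miRNA genes whose hairpin was examined, the interval lay beside the hairpin and did not overlap it. Mature sequences of the 2 best-known miRNAs of the group and of the nearest hairpin are shown with the seed, bases 2 to 8, in capitals, as RefSeq gives them.
hsa-let-7i-5p: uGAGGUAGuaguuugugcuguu
hsa-miR-152-3p: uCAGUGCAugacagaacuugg
hsa-miR-10392-5p: gCGCUUCGacgggcugggcugug
hsa-miR-10392-3p: cCGGCCCCgccucggcuccgcacc
No seed was shared among these 4. The let-7 family is known to repress growth-promoting genes, and the interval at MIRLET7I, with a score of 16, was 506 bp from the hairpin at chr12:62603686-62603769 and 311 bp from the start of its host gene MIRLET7IHG. The interval of MIR152 had a score of 22, was 334 bp from the hairpin at chr17:48037161-48037247 and lay 16 bp from a start site of COPZ2, the coding gene around it. MIR10392 directly adjoined its interval, which had a score of 30 and lay inside EHD1, 198 bp from a start site of that gene. The intervals of MIR12124, MIR5572 and MIR10398 had scores of 37, 19 and 22 and were 546, 580 and 673 bp from the hairpin. Of 86 miRNA host genes 2 had an interval (2.33%, beside 0.942% of all lncRNA genes), MIRLET7IHG with 16 and MIR4458HG with 18. MIR22HG, MIR497HG and MIR4453HG had one at a coding gene end.

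The 10 intervals at tRNA genes were at 12 tRNA genes of 8 amino acids. The highest score was 46 at TRI-TAT2-1, an isoleucine tRNA gene at chr2:42810536-42810628, whose interval was 812 bp wide and was given on 3 lines. The others were 44 and 14 at TRD-GTC2-8, 43 at TRW-CCA2-1, 32 at TRL-CAG2-1 and TRL-CAG2-2, 30 at TRT-TGT6-1, 29 at TRV-AAC1-3, 25 at TRP-CGG1-1 and TRP-AGG2-1, 17 at TRD-GTC2-9 and TRF-GAA1-4, and 13 at TRL-TAA1-1. Only 4 intervals overlapped a tRNA gene, namely those at TRI-TAT2-1, TRT-TGT6-1, TRF-GAA1-4 and TRL-TAA1-1. The distance of the others to the nearest tRNA gene ranged from 36 bp at TRL-CAG2-2 to 437 bp at the lower-scoring interval of TRD-GTC2-8. Both intervals at TRD-GTC2-8 were near a start site of LTA4H, at 216 and 103 bp. The interval of TRT-TGT6-1 also held the starts of the lncRNA genes LINC01962 and TRIM7-AS2. Other RNA polymerase III genes, such as RN7SK, RMRP and the Y and vault RNA genes, were also looked up. Of 11 that could have had an interval of this class, 0 had one, and of 4 RNU6 copies 0 had one. At the background of 0.602%, or even at the 3.08% of tRNA genes, less than 1 gene would be counted in lists of this size. These zeros therefore carry no information on the genes. RNU6-9 and 4 further tRNA genes had an interval at a coding gene end.

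Pseudogene intervals had scores from 17 to 74 at 41 pseudogenes, of which 23 were annotated as transcribed. FAM86FP had 3 intervals with scores of 33, 22 and 17. ORAI1, listed in the gene table as a transcribed pseudogene, encodes a calcium channel, and it had 2 intervals with scores of 56 and 17. The label as non-coding therefore does not suit these 2 intervals. They and ORAI1 were kept in all counts because of the listing. A coding gene with the parent's symbol was found for 20 pseudogenes, giving 19 parents, and 8 parents had an interval at their own ends. Among these were RP9, HNRNPA1, CROCC, MST1, RPL26, SMG1 and SLC7A5. Of all 2230 coding genes with a pseudogene so named, 25% had an interval. Pseudogenes share sequence with their parents, how reads that fit several places were handled is not stated, and the part of this in the pseudogene intervals was not tested.

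Start windows under these intervals were rich in G and C. Windows of 62 lncRNA genes overlapped 59 intervals, and in 44 of them the start site itself was inside. The values are for whole windows, and the overlap could be small, with only 8 bases inside the interval at LINC03006. Their median GC content was 70.3% (range 52.3 to 81.7), compared with 50% over 11383 lncRNA windows, 69.7% for 1792 coding windows under an interval at a coding end and 62.7% over 15812 coding windows. The median number of CpG dinucleotides was 30, compared with 5, 31 and 22. In the 20 windows whose interval was near a coding start site the median GC content was 69.0%, and in the other 42 it was 70.3%.

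**Figure D5:**
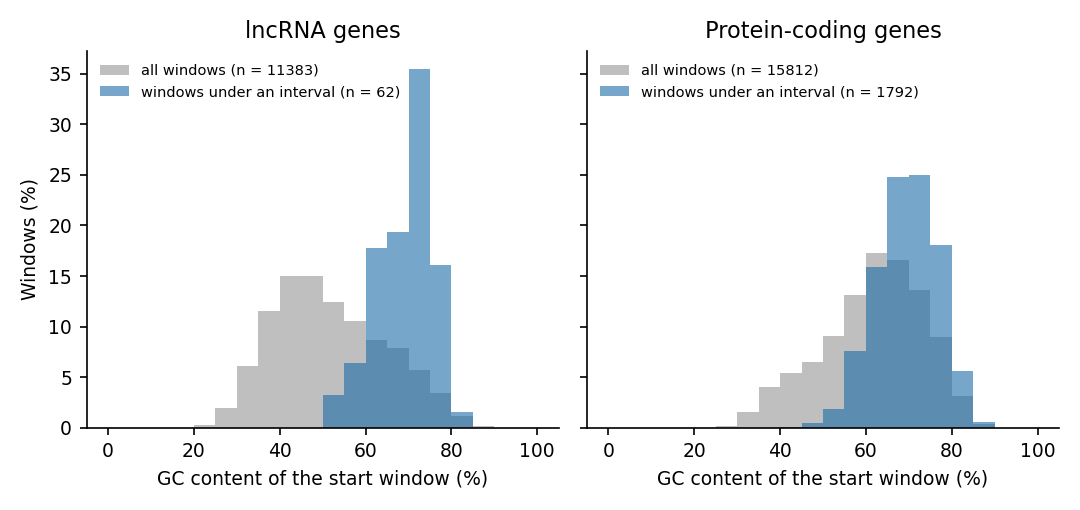
Distribution of GC content (percent of the 300 bases of a start window, in steps of 5) for lncRNA genes (left) and protein-coding genes (right). Grey bars are all windows and blue bars those that an interval overlaps, wholly or in part. The blue bars are 62 lncRNA windows with a median of 70.3% and 1792 coding windows with a median of 69.7%.

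Letters of known motifs were searched on both strands of the whole windows, including the bases outside the interval. Only the X-box letters were placed relative to the interval. The GC box GGGCGG, bound by SP and KLF factors, was in 50 of 62 windows (80.6%, 69.1 to 88.6), in 25.5% of all lncRNA windows and in 82.7% of coding windows under an interval. The GC content of the windows moves with this motif, and its part in the share was not tested. The letters GTTGCC, the left part of the X-box, were in 4 windows (6.45%, 2.54 to 15.4), compared with 11.6% of all lncRNA windows and 12.6% of coding windows under an interval. The longer X-box letters GTTGCCATG, which contain GTTGCC, were in 1 window (1.61%), against 0.756% of all lncRNA windows. The E-box CACGTG was in 7 windows (11.3%) against 5.46%, CCAAT in 14 (22.6%) against 34.7%, and the ETS letters CCGGAAGT in 2 (3.23%) against 2.01%. The tRNA A box TGGCNNAGT was in 2 windows (3.23%) against 3.63%, and the CRE letters TGACGTCA were in 1 (1.61%) against 1.13%. The NRF1 letters GCGCATGCG, the YY1 letters AAGATGGCG and the ZNF143 letters ACTACAATT were in 0 each, against 1.19%, 0.624% and 0.246%. The upper Wilson bound of 0 of 62 was 5.83%, above each of these shares, so the zeros carry no information. These matches describe letters and not bound sites.

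The 4 windows with the X-box letters differed in where these lay. In the windows of HEIH and LOC105371573, printed above, the letters were inside the interval, with their first base 163 and 144 bp before the start site. LOC105371573 is a gene model inside B9D1, a gene of the ciliary transition zone, and its interval (score 29) was 81 bp from a start site of B9D1. In LOC124904914, near a start site of SYS1, the letters CATGGCAAC (the opposite strand of the longer X-box letters) began 119 bp before the start site and were not wholly inside the interval (score 47). In LOC105376270 the letters began 242 bp before the start site and were outside the interval.

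Among the widest intervals were several at antisense lncRNA genes. INTS6-AS1 had 1219 bp (score 22), MAFG-AS1 1167 bp (score 35), SLC39A13-AS1 933 bp (score 37) and LINC00322 841 bp (score 27). Intervals given on 4 lines were those of TRT-TGT6-1, of LOC100507547 (score 23) and of B4GALT1-AS1 (score 22), and 8 further intervals were given on 3 lines. Of the genes, 14 had 2 intervals each and 2 had 3 each. DLG5-AS1 had scores of 50 and 47, LOC124903384 of 49 and 25, and LOC112267936 of 48 and 41.

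The intervals farthest from a non-coding end and still kept were at LOC124905040 (993.5 bp, score 33) and LOC101929129 (973 bp, score 32), and those just outside were at 1008.5 bp (score 27) and 1015 bp (score 18). Nearest to a coding end and still kept were the intervals of APP-DT (1016 bp, score 33) and LOC124904533 (1035 bp, score 37). Just outside were those at STMN1 (973.5 bp, score 30) and KLF9 (943.5 bp, score 25). By chromosome, intervals were found on 21 of 23 chromosomes. The highest counts were 22 of 473 listed intervals on chromosome 1 (4.65%), 21 of 388 on chromosome 12 (5.41%), 21 of 370 on chromosome 17 (5.68%) and 20 of 344 on chromosome 5 (5.81%). These shares were near the 4.50% of the whole list. Chromosomes 4 and X had 0 of only 57 and 25 listed intervals, so these zeros carry little information. Chromosome 2 had 2 among 242 intervals (0.826%), and chromosome 21 had 6 among 54 (11.1%).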

How the data were processed

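MHCC-97H chromatin was fixed with formaldehyde, sonicated and precipitated with an anti-HA antibody for HA-RFX6 ChIP-seq. A sequencing company did the analysis, and peaks were called with MACS2 2.1.0.2, per the submitters' processing notes. The aligner, the treatment of multi-mapping reads, the control of the peak calling and the meaning of the score are not given in the sources used here. The authors deposited a peak list of 1 ChIP library, with coordinates and a whole-number score per line and no header. The score was used to rank, to filter and to compare classes of intervals. Because its meaning is unknown, such comparisons concern the score only. No input file was analysed here, read depth was unknown and peaks are not replicates, so no p-value was given.

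The list held 6214 lines. Digit separators were removed from 1 line, identical intervals were counted once with their highest score, which left 5022, and the 3 on mitochondrial DNA were dropped. Positions are counted from 1. The notes name GRCh37, but 60.8% of the intervals were at coding gene ends of the RefSeq GRCh38.p14 table, compared with 7.65% and 8.11% after a move by 20 kb, so that table was used. It held 19974 coding and 39124 non-coding genes but no strand. Start sites and strand came from RefSeq start windows of 300 bases, which covered 11383 of 18196 lncRNA genes and 135 of the 172 with an interval, and did not cover every chromosome. "Inside a gene" means that the midpoint was between its outer ends. A gene could have an interval when an end was farther than 1 kb from every coding end.

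Shares are given with Wilson intervals and differences of shares with Newcombe intervals, at 95%. Named were all intervals at tRNA and other RNA polymerase III genes, the 15 highest scores, members of the SNHG, miRNA, miRNA host and liver cancer lists, the 5 widest, those on the most lines and the 2 at each side of each threshold. A few items that this rule names are not reported here. The intervals and lists were chosen with earlier results of these data known. Alternatives were a score of at least 30, windows of 500 bp and 2 kb, any overlap, merging within 1 kb, every line, no LOC models, start ends only and a move by 20 kb. Leaving out intervals at coding start sites was added after the data were seen. The assignment was tested on simulated intervals. Software was Python 3.11.15, with scipy 1.17.1, numpy 2.4.6, matplotlib 3.10.9 and pandas 2.3.3.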

Additional observations from a re-analysis of the deposited data

How the results depend on the processing

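The number of intervals at non-coding gene ends was 226 and fell to 111 with a score of at least 30 and to 124 without LOC models. After the moves by 20 kb it was 220 and 271, so the count itself was within the range of the moved lists. It was between 173 and 293 under the remaining alternatives. Intervals at tRNA genes numbered 10, 5 with a score of at least 30, and 1 and 0 after the moves by 20 kb. Intervals with only a pseudogene numbered 35, 15 with a score of at least 30, and 69 and 88 after the moves. The share inside a coding gene was 50.4% and rose to 59.5% with a score of at least 30. It fell to 35.3% without intervals at coding start sites, an alternative added after the data were seen. That fall was fixed by the rule, since all intervals left out were inside a coding gene. The share of non-coding genes with an interval was 0.602%. It was 0.311% with a score of at least 30, 0.493% with a window of 500 bp, 0.693% with a window of 2 kb and 0.476% without intervals at coding start sites. The share with a score of at least 30 stayed between 46.1% and 54.8% under its alternatives. Of 54 alternative values, 40 moved by less than their interval or, for counts, by less than 1.5 times. The 40 include the counts of 220 and 271 after the moves, which compare positions and are not a check of stability. Start ends only was computed for the number of intervals alone.

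No paired analysis was possible because the list came from 1 ChIP library, and for the same reason no replicate was left out. The depth was unknown, and the absence of an interval is not evidence that a gene was unbound.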
